A study of Mus musculus with 21 samples.

Results

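The PRAME-like (Pramel) and oogenesin (Oog) genes of the mouse were followed through follicle growth on bead arrays. Probes were taken as members where the array's annotation gave a symbol starting with Pramel or made of Oog and a number, and where the detection p-value, which sets a probe's signal against the negative control beads of the same array, was under 0.05 on at least 3 arrays. Of the 25697 probes on the array, 15 carried such a symbol and 8 of these, from 7 genes, passed. The genes were Oog4, Pramel12, Pramel13, Pramel25, Pramel26, Pramel32 and, with 2 probes, Pramel37. The family was chosen by the rise of its signals at the primary follicle stage in these same arrays, so values from that step are given as a description only.

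PRAME-like proteins are built of leucine-rich repeats and form one of the most expanded gene families of the mouse genome, with many recent copies side by side. Most members are known from germ cells and early embryos, and the oogenesins were named for their expression in oocytes. Human PRAME, the founding member, binds retinoic acid receptors and serves as a substrate receptor of cullin-2 ubiquitin ligases, and mouse Pramel7 is known to take part in protein degradation in embryonic stem cells. An oocyte starts to grow when its follicle leaves the primordial pool. It then accumulates the messages used at ovulation and after fertilisation, while the granulosa cells around it multiply.

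The study compared 7 stages of follicle growth in untreated CD1 female mice, except for the last stage, with 3 arrays a stage. Whole ovaries of postnatal day 3 (PMD3) and day 4 (PMD4) stood for primordial follicles. Isolated follicles were primary follicles of 70 to 90 µm at day 10 (PRIMARY), 2-layer secondary follicles of 100 to 130 µm at day 12 (TLS), multilayer secondary follicles of 150 to 180 µm at day 16 (MLS), preantral follicles of 200 to 300 µm at day 18 (PREANTRAL) and antral follicles of 400 to 600 µm at day 20 (ANTRAL), the last from mice given pregnant mare serum gonadotropin (PMSG). Per the labels the 3 samples of a stage were drawn from 1 pool, so p-values measure the spread between these samples and not between animals. The labels give the strain and no other genotype.

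Some labels and arrays stand apart from their stage name. For PREANTRAL repeat 2 the age, size range and source are those of antral follicles. PMSG is given in the antral source name, while the treatment entry of the labels reads no treatment. The stage entry of PRIMARY repeat 3 reads PMD3, and its tissue entry, like that of TLS repeat 2, is ovary. Between 12363 and 13953 probes were detected per array, and median signals lay between 91.5 and 142.8 units. By correlation over all probes tested, TLS repeat 1 was closer to MLS (mean r 0.978) than to the other TLS arrays (0.971), TLS repeat 3 was closer to PRIMARY (0.980 against 0.972), and PMD3 repeats 1 and 3 were closer to PMD4. The lowest mean correlations with the other arrays of a stage were those of TLS repeat 2 (0.964) and PMD3 repeat 2 (0.969). These arrays were still closest to their own stage. A column name shared by 2 antral arrays leaves them without a repeat number, and they are called repeats a and b. Of 22 oocyte markers tested, 22 were detected on at least 1 array of each stage other than ANTRAL, where 21 were. In such bulk samples fewer cells of a type and less RNA per cell cannot be told apart.

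The RefSeq table of assembly GRCm38.p6 holds 52 genes with such a symbol, 28 of them on chromosome 4 and 18 on chromosome 5. Of the 14 genes with a probe, 11 lie on chromosome 4, 1 on chromosome 5 and 2 on chromosome 2. Within 996 kb, at chr4:143412155-144408467, lie 5 member genes, Pramel12 (chr4:143412155-143421091), Oog4 (chr4:143437164-143450324), Pramel25 (chr4:143789334-143795585), Pramel26 (chr4:143809245-143816093) and Pramel13 (chr4:144391674-144408467). That stretch holds 40 RefSeq genes, of which 23 carry a Pramel or Oog symbol. Pramel32 lies apart on the same chromosome (chr4:88627320-88634186), and Pramel37 lies on chromosome 5 (chr5:94066454-94070545). Since near-identical copies are not all on the array, a probe may also bind messages of a copy, and each value below is that of a probe named for a gene.

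The stretch around the start of each gene, 250 bases before it and 50 after, shows how alike these copies are, and it is shown for the 4 genes with the early rise, for Pramel13, which had another pattern, and for Oog2, whose promoter is nearly that of Pramel26 although its own probe gave no signal. The sequences are those of RefSeq on GRCm38.p6, written 5′ to 3′ on the strand of the gene. Capitals mark CANNTG, the E-box, and TAATTG, an element known for binding homeodomain factors of the Nobox kind, each on either strand.
Pramel25 (chr4:143789084-143789383, plus strand): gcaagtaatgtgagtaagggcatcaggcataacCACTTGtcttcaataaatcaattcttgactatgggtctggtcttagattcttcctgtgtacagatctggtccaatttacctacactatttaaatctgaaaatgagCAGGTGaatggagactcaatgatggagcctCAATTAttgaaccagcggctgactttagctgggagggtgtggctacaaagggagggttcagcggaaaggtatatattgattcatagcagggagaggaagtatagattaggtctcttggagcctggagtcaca
Pramel26 (chr4:143816044-143816343, minus strand): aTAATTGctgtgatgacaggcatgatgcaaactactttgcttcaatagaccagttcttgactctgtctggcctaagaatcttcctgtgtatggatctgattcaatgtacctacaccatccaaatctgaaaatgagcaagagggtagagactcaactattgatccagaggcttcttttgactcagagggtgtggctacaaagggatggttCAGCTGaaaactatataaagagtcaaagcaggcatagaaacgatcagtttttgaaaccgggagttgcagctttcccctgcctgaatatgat
Pramel32 (chr4:88634137-88634436, minus strand): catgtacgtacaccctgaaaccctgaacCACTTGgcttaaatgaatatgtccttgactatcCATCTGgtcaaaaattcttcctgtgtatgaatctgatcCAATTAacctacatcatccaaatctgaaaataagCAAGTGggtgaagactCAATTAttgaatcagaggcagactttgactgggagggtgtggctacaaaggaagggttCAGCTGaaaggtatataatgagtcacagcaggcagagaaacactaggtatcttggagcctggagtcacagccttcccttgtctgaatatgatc
Oog4 (chr4:143450275-143450574, minus strand): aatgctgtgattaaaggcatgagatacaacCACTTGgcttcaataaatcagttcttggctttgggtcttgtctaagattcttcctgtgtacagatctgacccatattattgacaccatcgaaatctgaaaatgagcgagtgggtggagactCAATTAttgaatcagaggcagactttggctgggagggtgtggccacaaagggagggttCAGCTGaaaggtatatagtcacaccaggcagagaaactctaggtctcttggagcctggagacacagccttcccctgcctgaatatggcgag
Pramel13 (chr4:144408415-144408714, minus strand): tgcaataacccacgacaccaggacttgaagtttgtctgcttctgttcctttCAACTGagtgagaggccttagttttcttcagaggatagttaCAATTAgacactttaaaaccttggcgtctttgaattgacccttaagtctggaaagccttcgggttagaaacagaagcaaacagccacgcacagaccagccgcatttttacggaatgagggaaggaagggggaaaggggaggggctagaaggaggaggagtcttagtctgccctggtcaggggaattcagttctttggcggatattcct
Oog2 (chr4:144190467-144190766, plus strand): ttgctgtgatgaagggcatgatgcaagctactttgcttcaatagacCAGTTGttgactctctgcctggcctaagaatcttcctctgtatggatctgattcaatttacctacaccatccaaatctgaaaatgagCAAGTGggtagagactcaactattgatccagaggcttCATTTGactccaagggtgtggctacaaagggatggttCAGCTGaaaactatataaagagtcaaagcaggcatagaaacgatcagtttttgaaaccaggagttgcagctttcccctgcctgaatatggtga

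Of the 14 genes 13 have a promoter in that table, all but Pramel12. In a global alignment the promoters of Oog4 and Pramel32 were identical at 83.0% of the 300 bases, Oog4 and Pramel26 at 79.33%, and Oog4 and Pramel25 at 78.33%. Of the pairs among these 4 the lowest was Pramel25 and Pramel26, at 73.0%. Pramel13 shared 58.33% to 61.0% with these 4. Likeness was not limited to members. The undetected Pramel27 and Oog3 were identical to Oog4 at 80.33% and 77.67%, and to each other at 81.0%, while Pramel1, also undetected, stood at 61.67% with Oog4. TAATTG stood in 5 of the 6 member promoters, with 2 copies in Pramel32 and none in Pramel37, and in 1 of the 7 promoters of genes that were not members, Oog3. Over all 32851 promoters listed, 8.0% held it. CANNTG stood in 13 of 13, beside 72.3% over all promoters. The 2 motifs do not overlap in the sequences shown. The promoters share descent, so the matches are not independent of each other, and a match describes letters and not a bound site. Oog2 and Pramel26 were identical at 283 of 300 bases. The Oog2 window begins inside the stretch that aligns with the single TAATTG of Pramel26, so its count of 0 says nothing of that stretch.

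Detection divided the family. Pramel12, Pramel13 and Pramel26 were detected on 21 of 21 arrays and Pramel32 on 20, missing on 1 array of PMD3. Pramel25 was detected on 15 arrays, none of them PMD3. Oog4 was detected on 11 arrays, with 3 each of PRIMARY, TLS and MLS, 2 of PREANTRAL and none of PMD3, PMD4 or ANTRAL. The 2 probes of Pramel37, ILMN_3026128 and ILMN_3098894, only just passed, with 3 arrays each. Just outside the rule stood Pramel6 with 1 array, of PREANTRAL, and Pramel1, whose lowest detection p was 0.053. Oog2, Oog3, Pramel1, Pramel17, Pramel27 and Pramel7 were detected on 0 of 21 arrays. The signals of the 7 probes outside the rule lay between 68.5 and 121 units, and Pramel7, the member known from embryonic stem cells, was among them. When these probes were tested in a fit without a filter on detection, limma called 0 of 35 differences at an adjusted p under 0.05, with 1 at an unadjusted p under 0.05.

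**Figure D1:**
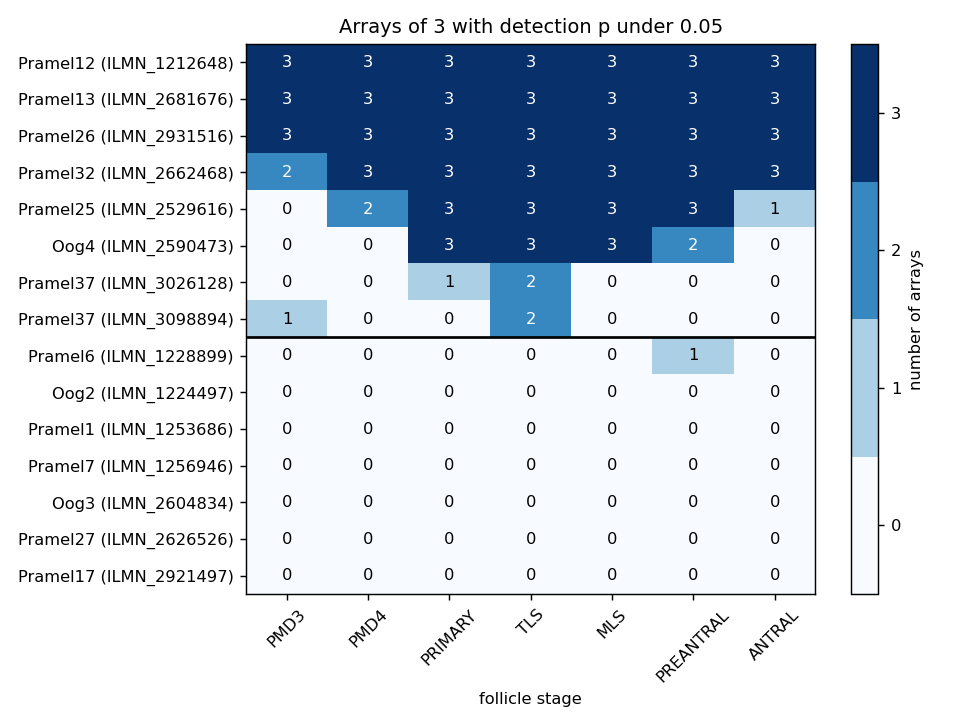
Number of arrays, of 3 a stage, on which each of the 15 Pramel and Oog probes had a detection p under 0.05. Columns are the 7 stages and rows the probes; the black line divides the 8 member probes from the 7 others. Oog4 and Pramel25 lack detection in PMD3 and are detected on 3 arrays in PRIMARY, TLS and MLS.

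Apart from Pramel37, whose probes stayed near the detection limit, the member probes showed 3 patterns. Pramel25, Pramel26, Pramel32 and Oog4 were low in day 3 and day 4 ovaries, high in primary and secondary follicles and low again in antral follicles. Pramel13 was high from day 3 on and fell only in the later follicles. The stage means of Pramel12 differed by at most 0.47. All levels below are log2 signals after background correction and quantile normalisation, given in the order of repeats 1, 2 and 3 (1, a and b for ANTRAL), and levels of different probes are not compared.

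Pramel25 read 4.53, 4.82 and 4.81 in PMD3, where it was not detected, and 4.96, 5.52 and 6.19 in PMD4. In PRIMARY it read 9.81, 9.87 and 10.00, followed by 9.51, 9.47 and 9.71 in TLS and 8.82, 9.51 and 9.15 in MLS. It then read 7.60, 7.07 and 7.65 in PREANTRAL and 4.77, 5.78 and 5.05 in ANTRAL. PRIMARY was the highest stage and did not overlap with TLS, and the array tagged PMD3 among the PRIMARY labels read as high as the other PRIMARY arrays. ANTRAL overlapped with both PMD3 and PMD4.

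Pramel32 followed a like course with a later top. It read 4.79, 5.02 and 5.09 in PMD3, 5.66, 5.78 and 6.07 in PMD4, and 9.70, 9.83 and 9.79 in PRIMARY. TLS arrays read 9.99, 10.54 and 9.76 and MLS arrays 9.55, 9.89 and 10.04. The 3 stages PRIMARY, TLS and MLS overlapped with each other in the order of their means. PREANTRAL arrays, at 8.08, 7.60 and 7.93, lay below all of these and above ANTRAL arrays, at 6.20, 6.52 and 5.86. Unlike Pramel25, Pramel32 was still detected on 3 of 3 ANTRAL arrays.

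Oog4, an oogenesin, read 4.42, 4.55 and 4.45 in PMD3 and 4.64, 4.56 and 4.65 in PMD4, all undetected. In PRIMARY it read 6.99, 6.98 and 7.58, in TLS 7.49, 8.41 and 8.26, and in MLS 7.59, 8.15 and 7.47. PREANTRAL arrays read 5.79, 5.26 and 5.24, and ANTRAL arrays 4.53, 4.58 and 4.95. The highest mean was that of TLS, and its arrays overlapped with those of MLS. ANTRAL overlapped with PMD4, at a level where the probe was not told from control beads.

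Pramel26 was detected in every sample. Its levels were 9.03, 8.13 and 8.52 in PMD3, 9.06, 9.17 and 9.11 in PMD4, and 12.03, 12.16 and 12.17 in PRIMARY. TLS arrays read 11.52, 11.13 and 11.76 and MLS arrays 11.22, 11.46 and 11.27. PRIMARY stood above both without overlap. In PREANTRAL the probe was back near its day 4 level, at 9.16, 9.30 and 8.64, and in ANTRAL, at 7.36, 8.06 and 6.56, it lay below all 3 day 3 ovaries.

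Pramel13, also named Pramef12 and known in the mouse for a role in spermatogonial stem cells, was high before follicles grew. It read 10.73, 10.64 and 10.99 in PMD3, 10.62, 10.95 and 10.71 in PMD4, and 10.81, 10.78 and 10.91 in PRIMARY. The 3 earliest stages overlapped with each other in the order of their means. TLS arrays read 10.49, 10.05 and 10.86, MLS arrays 9.83, 10.07 and 10.13, PREANTRAL arrays 8.21, 8.44 and 7.83, and ANTRAL arrays 6.53, 7.45 and 6.73. The steps from MLS to PREANTRAL and from PREANTRAL to ANTRAL had no overlap.

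Pramel12, also named Pramef8, was detected on every array, and its 7 stage means lay between 8.35 ± 0.75 (SD, n = 3) in TLS and 8.81 ± 0.18 in PMD4. Each stage overlapped with the next in the order of means. The lowest array was TLS repeat 2 at 7.49 and the highest PMD3 repeat 3 at 9.15. Pramel37 stayed close to the detection limit, with array values from 4.46 to 6.17 for ILMN_3026128 and from 4.52 to 5.35 for ILMN_3098894. TLS had the highest mean for both probes, at 5.78 ± 0.50 and 5.07 ± 0.30 (SD, n = 3), but across the 21 arrays the 2 probes correlated with each other at r = 0.174 only.

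**Figure D2:**
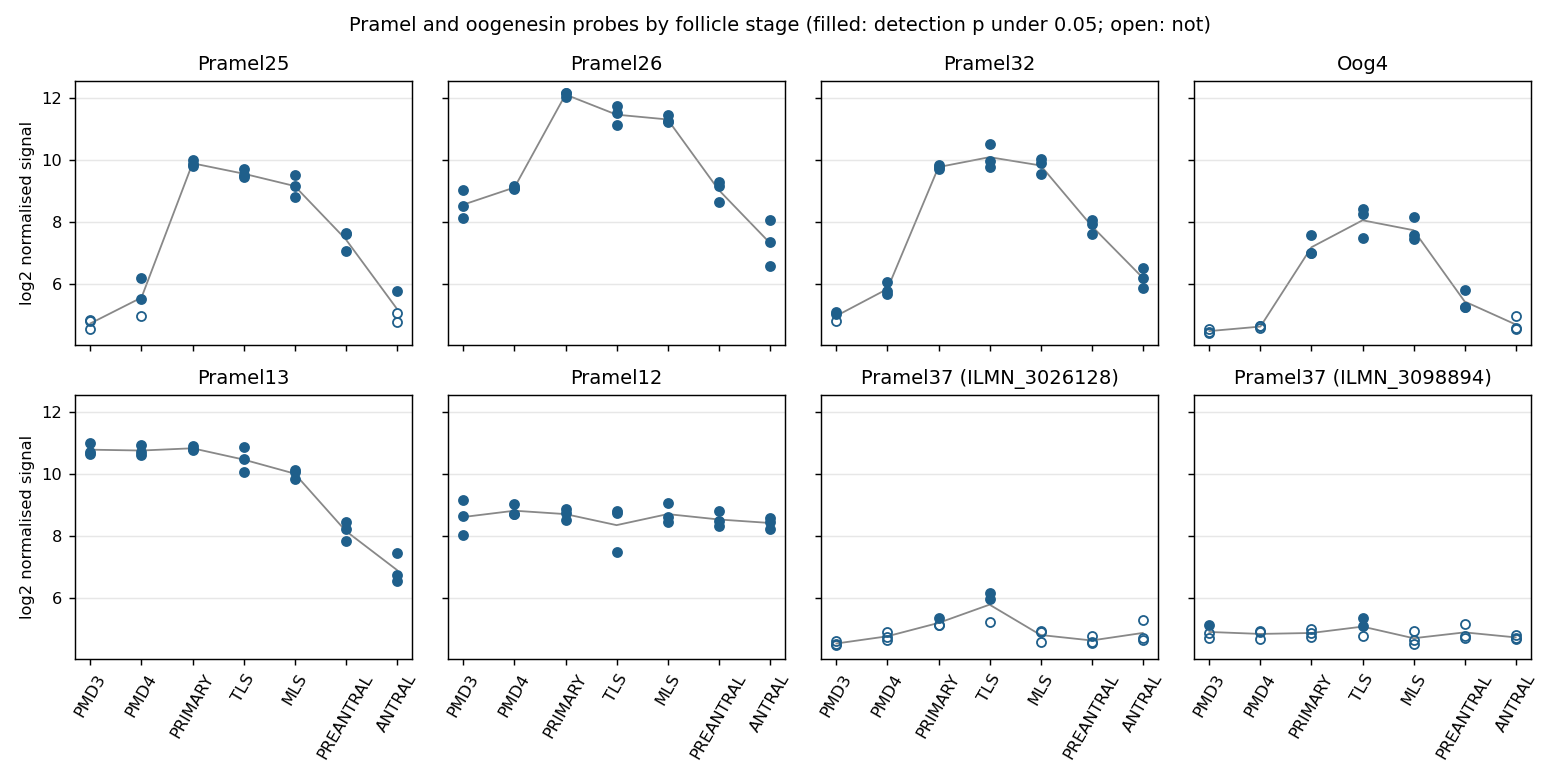
Log2 normalised signal of the 8 member probes on each array by stage; each point is 1 array, filled where its detection p was under 0.05, and the line joins the stage means. Pramel25, Pramel26, Pramel32 and Oog4 stand high from PRIMARY to MLS, Pramel13 stands high from PMD3 on, and Pramel12 keeps its level, with stage means from 8.35 to 8.81.

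The step for which the family was picked can be described but not tested. From PMD4 to PRIMARY the mean of Pramel25, detected on 2 of 3 PMD4 arrays, was 4.34 higher on the log2 scale (20.3-fold), that of Pramel32 3.94 higher (15.3-fold) and that of Pramel26 3.00 higher (8.02-fold). For Oog4, undetected in PMD4, only a bound can be given, and it was at least 4.34-fold higher in PRIMARY. Bounds here and below set the mean of the brighter stage against a mean in which each array of the dim stage counts with the lowest signal told from background on that array, or with the probe's own value where that is higher. The differences were 0.07 for Pramel13 and -0.11 for Pramel12. In 5 of the 8 probes all 3 PRIMARY arrays were higher than all 3 PMD4 arrays, as in 25.6% of all 15836 probes tested, and because this step chose the family nothing is read from that count. Between the 2 whole-ovary stages, in which follicles were not isolated, Pramel32 was already 0.87 higher on day 4 than on day 3 and Pramel26 0.55 higher, without overlap. Pramel25, undetected on day 3, was at least 1.44-fold higher on day 4. Such non-overlap upward was found for 9.93% of probes and for 5 members, but 2 of these, Oog4 and Pramel37 by ILMN_3026128, were undetected on all 6 arrays, so that their order is one among background values. From PRIMARY to TLS, the difference was -0.65 for Pramel26 and -0.34 for Pramel25, with all arrays below, a relation shared by 11.4% of probes, while Oog4 was 0.87 and Pramel32 was 0.32 higher with overlapping arrays.

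The comparison of TLS with PMD3 used arrays outside the step from PMD4 to PRIMARY. The 2 stages lie on either side of that step and the variance came from all 21 arrays. The comparison is therefore not independent of how the family was chosen. TLS sets isolated follicles against whole ovaries, so cell types other than oocytes differ too. With limma fitted to all 21 arrays and p-values adjusted over the 15836 probes by Benjamini-Hochberg, 5 of 8 member probes rose and none fell, beside 13.5% of all probes called higher. Pramel32, detected on 2 of 3 PMD3 arrays, rose by 5.13 on the log2 scale (SE 0.21, 35.0-fold, adjusted p = 1.92e-13). Pramel25 was 4.84 higher (SE 0.27, at least 23.1-fold, adjusted p = 1.77e-11), Oog4 3.58 higher (SE 0.24, at least 8.15-fold, adjusted p = 2.15e-10) and Pramel26 2.91 higher (SE 0.28, 7.5-fold, adjusted p = 6.91e-08). One Pramel37 probe, ILMN_3026128, was called as well, at 1.26 (SE 0.21, at least 1.68-fold, adjusted p = 9.03e-05), whereas ILMN_3098894 differed by 0.17 (95% interval -0.20 to 0.54, adjusted p = 0.522). Pramel13 differed by -0.32 (95% interval -0.79 to 0.15, adjusted p = 0.324) and Pramel12 by -0.26 (95% interval -0.87 to 0.35, adjusted p = 0.556). The median over the 8 probes was 2.08 and that over all probes 0.00. Probes such as Oog4 and Pramel37 entered the count only through the stages where they were bright, so these figures describe the probes that passed and not the family.

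The size of these differences rests on how background is handled. Without background correction Pramel32 was 3.29, Pramel25 2.91, Oog4 1.82 and Pramel26 2.63 higher in TLS than in PMD3. In the authors' own log2 values Pramel32 was 2.41, Pramel25 2.02, Oog4 1.09 and Pramel26 2.42 higher. Each of these remained past the threshold, and the 5 calls were also made when any one of the 6 arrays was left out.

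From TLS to MLS 1 of 8 probes was called, ILMN_3026128 of Pramel37, which fell by 0.98 (at least 1.6-fold, adjusted p = 0.0151 with limma), beside 1.27% of all probes called lower. This probe was detected on 3 arrays, 2 of TLS and 1 of PRIMARY. It was a member only because it was bright there, so nothing is read from its fall. Without TLS repeat 3 its difference was -0.79 (adjusted p = 0.0741), and without MLS repeat 1 it was -0.86 (adjusted p = 0.0841), within a range of adjusted p from 0.00106 to 0.218 over 15 alternatives. Elsewhere the 95% intervals of the difference ran from -0.81 to 0.17 for Oog4, -0.96 to 0.16 for Pramel25, -0.74 to 0.43 for Pramel26 and -0.70 to 0.17 for Pramel32. Pramel13 lay at -0.45, with an interval of -0.93 to 0.02.

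From MLS to PREANTRAL 5 of 8 probes fell and none rose, beside 8.48% of all probes called lower. The family was chosen by its rise at PRIMARY, and Oog4 passed the rule only through arrays from PRIMARY to PREANTRAL. The falls, here and in the comparisons with ANTRAL below, are therefore not independent of that choice. They describe the probes that passed and not the family. Oog4, detected on 2 of 3 PREANTRAL arrays, fell by 2.30 (SE 0.24, 4.94-fold, adjusted p = 1.09e-06) and Pramel26 fell by 2.28 (SE 0.28, 4.85-fold, adjusted p = 7.01e-06). Pramel32 fell by 1.96 (SE 0.21, adjusted p = 1.53e-06), Pramel13 fell by 1.85 (SE 0.23, adjusted p = 6.42e-06) and Pramel25 fell by 1.72 (SE 0.27, adjusted p = 0.000112), all by limma. Pramel12 differed by -0.17 (adjusted p = 0.764). Leaving out PREANTRAL repeat 2, the array with antral labels, kept 5 calls, and the differences of Oog4 and Pramel25 were then -2.22 and -1.53.

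From PREANTRAL to ANTRAL, a step that also brought PMSG, 5 of 8 probes fell, beside 13.9% of all probes called lower. Pramel25 was detected on 1 of 3 ANTRAL arrays and fell by 2.24 (SE 0.27, adjusted p = 1.89e-06), to a level mostly not told from background. Pramel26 fell by 1.71 (SE 0.28, 3.27-fold, adjusted p = 8.6e-05), Pramel32 fell by 1.67 (SE 0.21, 3.19-fold, adjusted p = 3.01e-06) and Pramel13 fell by 1.26 (SE 0.23, 2.39-fold, adjusted p = 0.000232). Oog4 fell by 0.74 (at least 1.08-fold, adjusted p = 0.0229 with limma), a call that did not hold in 7 of 15 alternatives, among them the authors' values (-0.14, adjusted p = 0.413) and the fit without ANTRAL repeat 1 (-0.67, adjusted p = 0.0865). Over the alternatives its adjusted p ran from 0.0171 to 0.413. With the repeat number as a block the Oog4 difference was -0.80. That fit left out ANTRAL repeats a and b, which have no number, and so kept 1 ANTRAL array. The call also ended without PREANTRAL repeat 1 (-0.56, adjusted p = 0.128) and without ANTRAL repeat a (-0.69, adjusted p = 0.0705). Without PREANTRAL repeat 2, whose source label is the antral one with PMSG, all 5 calls were made, and the difference of Pramel25 was -2.43. Pramel12 differed by -0.11 (95% interval -0.72 to 0.50, adjusted p = 0.826). Day of age and PMSG go with the stage and cannot be told apart from it.

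Over the whole span from TLS to ANTRAL 6 of 8 probes fell, beside 19.3% of all probes called lower. This span uses arrays of the comparisons above and is not independent of them, nor of the choice of the family. Pramel25 fell by 4.36 (SE 0.27, adjusted p = 3.53e-11), with 1 of 3 ANTRAL arrays detected. Pramel26 fell by 4.14 (SE 0.28, 17.7-fold, adjusted p = 1.37e-10), Pramel32 fell by 3.90 (SE 0.21, 14.9-fold, adjusted p = 3.83e-12) and Pramel13 fell by 3.57 (SE 0.23, 11.8-fold, adjusted p = 5.09e-11). Oog4 fell by 3.37 (SE 0.24, at least 6.69-fold, adjusted p = 2.1e-10). Pramel37 by ILMN_3026128 fell by 0.91 (at least 1.38-fold, adjusted p = 0.00144 with limma) with overlapping arrays. It passed the rule only through arrays of TLS and PRIMARY, so nothing is read from its fall. With the repeat number as a block, a fit that kept 1 ANTRAL array, the difference of ILMN_3026128 was -0.38. Of 15 alternatives the other 14 kept the call, with a lowest adjusted p of 5.19e-05 by limma. The medians were -3.47 over the 8 probes and 0.03 over all probes, and Pramel12 differed by 0.07 (95% interval -0.54 to 0.68, adjusted p = 0.876).

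**Figure D3:**
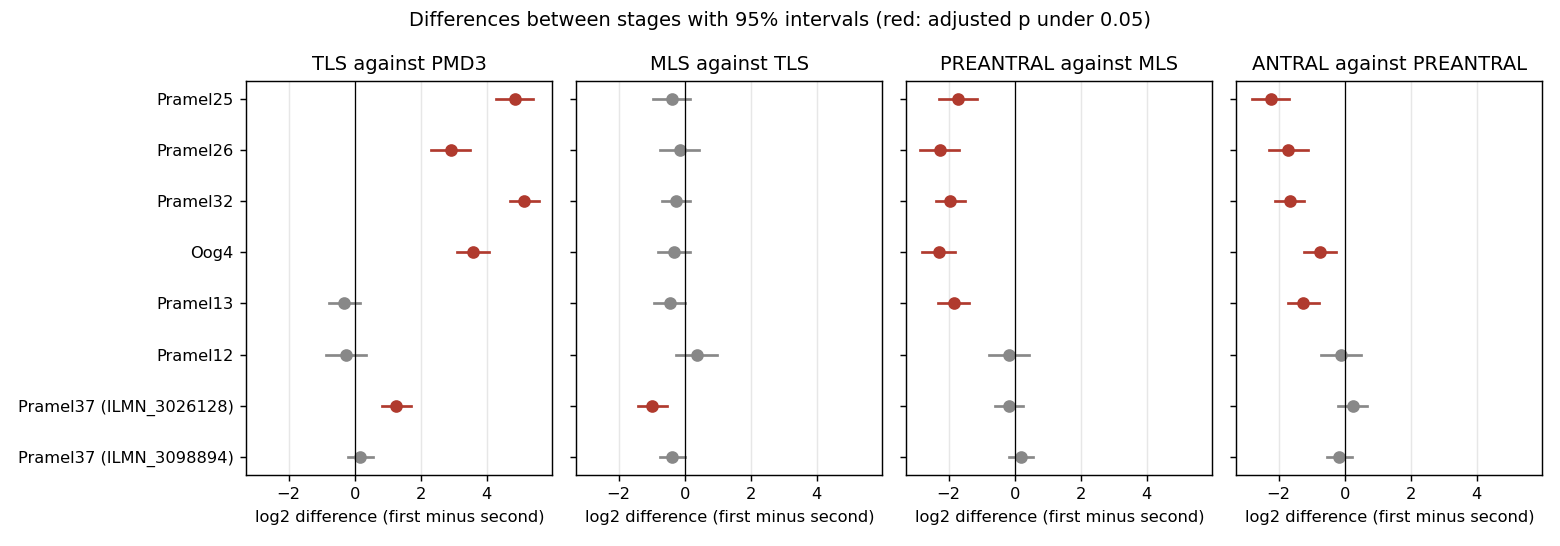
Log2 differences of the 8 member probes in 4 of the tested comparisons; points are estimates from limma, bars their 95% intervals, and red marks an adjusted p under 0.05. Pramel25, Pramel26, Pramel32 and Oog4 lie right of 0 in TLS against PMD3 and left of 0 in the 2 last steps, Pramel13 lies left of 0 in the 2 last steps, and the intervals of Pramel12 span 0 in each panel.

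The ANTRAL arrays differed among themselves. Repeat a lay above the stage mean by 0.74 for Pramel26, 0.58 for Pramel25, 0.55 for Pramel13 and 0.33 for Pramel32, and its oocyte markers by 0.34. Repeat b lay below it by -0.77 for Pramel26, with oocyte markers at -0.33. Without repeat a the difference of Pramel26 from TLS was -4.51, and without repeat b it was -3.76, both past the threshold (adjusted p of 6.19e-11 and 6.29e-10 with limma).

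Oocyte markers fell with the members in the later steps, while from PMD3 to TLS their mean did not rise with them. The mean log2 level of 22 markers, among them the growth factor Gdf9 and the zona pellucida gene Zp3, was 11.24 in PMD3, 11.42 in PMD4, 11.85 in PRIMARY, 11.24 in TLS, 10.72 in MLS, 9.06 in PREANTRAL and 7.87 in ANTRAL. Of these markers 20 of 22 fell from MLS to PREANTRAL, 16 from PREANTRAL to ANTRAL and 21 from TLS to ANTRAL, with a median of -3.63 over that span. From PMD3 to TLS 7 rose and 6 fell, with a median of -0.09 and differences from -4.60 for Sohlh1 to 3.39 for Bmp15. Of 18 granulosa cell markers 15 were higher in TLS than in PMD3, 4 rose and 3 fell from MLS to PREANTRAL, 1 rose and 7 fell from PREANTRAL to ANTRAL, and 5 rose and 7 fell from TLS to ANTRAL. Their mean level was 8.88 in PMD3, 11.13 in TLS, 11.28 in PREANTRAL and 10.47 in ANTRAL. Surface epithelium markers stood at 8.63 in the whole ovaries of PMD3 against 7.01 in TLS and stroma markers at 9.78 against 8.98, whereas the 8 theca and interstitial markers stood lower in PMD3, at 5.40 against 6.81. From TLS to ANTRAL 9 of 10 endothelium markers, 4 of 8 theca and interstitial markers, 3 of 4 leukocyte markers and 2 of 2 erythroid markers rose. Of 13 stroma markers 4 rose and 2 fell, and of 7 surface epithelium markers 0 rose and 3 fell. Over all probes 13.5% were called higher and 15.4% lower from PMD3 to TLS, and 20.8% and 19.3% from TLS to ANTRAL. The shares were 5.89% and 8.48% from MLS to PREANTRAL, and 12.5% and 13.9% from PREANTRAL to ANTRAL. The part of the marker shifts in the member values was not tested.

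The level of each member was also set against the oocyte marker mean of the same array, as a description. The mean of the 22 markers was alike in PMD3 and TLS, so the early differences kept their size on that scale, and the late ones were smaller. From PMD3 to TLS the difference was 5.13 for Pramel32, 4.84 for Pramel25, 3.58 for Oog4 and 2.91 for Pramel26, and it was -0.32 for Pramel13. Pramel25 and Oog4 were undetected in PMD3, so their values there are at background. The early sizes depended on the reference, since the mean of Gdf9, Bmp15 and Zp3 was itself 1.34 higher in TLS. Relative to these 3 genes the differences were 3.79 for Pramel32, 3.5 for Pramel25, 2.24 for Oog4, 1.57 for Pramel26 and -1.66 for Pramel13. From TLS to ANTRAL, relative to the 22 markers, the difference was -0.20 for Pramel13, -0.54 for Pramel32, -0.78 for Pramel26 and, with 1 of 3 ANTRAL arrays detected, -1.0 for Pramel25. Oog4 has no value of its own in ANTRAL, where it was undetected. Pramel25 and Pramel26 were the 2 members whose ANTRAL arrays all lay below their TLS arrays on this scale. The signs for Pramel13 and Pramel32 depended on the reference too. Against Gdf9, Bmp15 and Zp3 alone Pramel13 stood at 0.43, Pramel32 at 0.10, Pramel26 at -0.14 and Pramel25 at -0.36. The sign for Pramel25 depended on the processing. In the authors' values, against the same marker list as far as they hold it, Pramel25 stood at 0.62. Pramel12 lay higher in ANTRAL than in TLS on this scale, with 3.43 relative to the 22 markers, 4.07 relative to the 3 genes and 2.60 in the authors' values. Its own level differed by 0.07 between these stages, while the mean of the 22 markers went from 11.24 to 7.87.

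**Figure D4:**
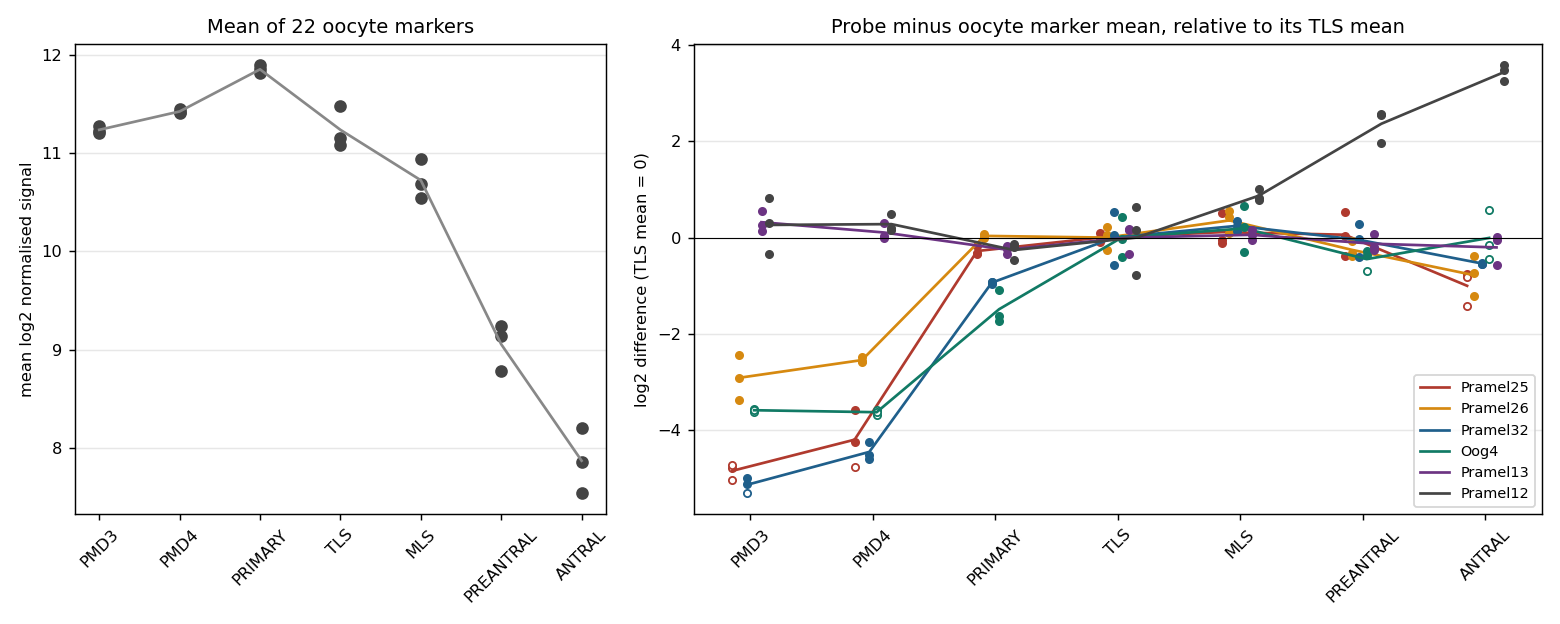
The left panel shows the mean log2 signal of 22 oocyte markers on each array by stage, which is 11.24 in TLS and 7.87 in ANTRAL. The right panel shows 6 member probes after subtracting that mean on the same array, each shifted so that its own TLS mean is 0; points are arrays, open where the probe was undetected, and lines join stage means. Pramel25, Pramel26, Pramel32 and Oog4 climb between PMD4 and TLS, the ANTRAL means of Pramel26 and Pramel32 lie at -0.78 and -0.54, the ANTRAL points of Oog4 are all open, and Pramel12 stands at 3.43 in ANTRAL.

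Across the 21 arrays the 4 probes with the early rise varied together. The correlation was 0.980 between Pramel25 and Pramel32, 0.951 between Oog4 and Pramel32, 0.935 between Oog4 and Pramel25, 0.910 between Pramel25 and Pramel26, 0.873 between Oog4 and Pramel26, and 0.860 between Pramel26 and Pramel32. Pramel13 correlated at 0.627 with Pramel26 and at 0.306 with Pramel25. Pramel12 ranged from -0.23 to 0.31 with the other probes. The arrays share stages and pools, so these values are a description of the 7 stage profiles. They include the PMD4 and PRIMARY arrays, and the 4 probes were grouped by their rise at that step. Their correlations with each other are therefore not independent of the grouping.

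Among 10060 other genes the 5 with the profile most like the mean of the 8 probes were Nlrp9a (r = 0.993 over 21 arrays) and Nlrp4a (0.983), of the NLR family, Fbxw16 (0.988), an F-box gene, Zfp957 (0.982), a zinc finger gene, and Esrrb (0.982), an orphan nuclear receptor. Nlrp9a had stage means of 6.78 in PMD3, 10.36 in PRIMARY and 6.30 in ANTRAL, and Esrrb of 5.26, 10.08 and 5.18. Bmp15, which codes for an oocyte growth factor, stood at 0.979, Gdf9 at 0.779 and Zp3 at 0.588, and the median over all genes was -0.03. The mean profile holds the rise at PRIMARY by which the family was chosen, so the ranking is a description only. Bmp15 itself went from 9.79 in PMD3 to 13.38 in PRIMARY and 8.79 in ANTRAL, whereas Gdf9 went from 13.71 to 14.89 and 11.16.

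Genes of the cullin-2 ubiquitin ligase, the complex that human PRAME joins, were counted in the same fit. Of 16 tested genes, limma called 1 higher and none lower in TLS against PMD3, beside 13.5% of all probes higher and 15.4% lower. The gene called was Klhdc2, which like PRAME is a substrate receptor, at 0.54 (adjusted p = 0.0247). From TLS to MLS, MLS to PREANTRAL and PREANTRAL to ANTRAL limma called 0 of 16, with 3, 2 and 0 at an unadjusted p under 0.05. Over all probes 1.4% were called higher and 1.27% lower in the first of these steps, 5.89% and 8.48% in the next, and 12.5% and 13.9% in the last. From TLS to ANTRAL, where 20.8% of all probes were called higher and 19.3% lower, 1 of 16 rose and 2 fell, led by Uba3, a subunit of the NEDD8-activating enzyme, at 0.84 (adjusted p = 0.000953) and Klhdc3, another receptor, at -0.95 (adjusted p = 0.00385). The medians of this list lay between -0.23 and 0.04 in the 5 comparisons, beside -0.04 to 0.04 over all probes.

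Genes of retinoic acid signalling, to which human PRAME has been linked, changed in both directions. Of 14 tested genes 2 rose and 6 fell from PMD3 to TLS, beside 13.5% and 15.4% of all probes, with the binding protein Crabp1, which fell by 3.11 (at least 6.16-fold, adjusted p = 3.59e-08) and the retinoic acid synthesising enzyme Aldh1a2, which fell by 1.61 (adjusted p = 7.54e-05). From MLS to PREANTRAL 2 rose and 1 fell, beside 5.89% and 8.48%, with the binding protein Crabp2 2.32 higher (adjusted p = 2.57e-06) and the receptor Rarg, detected on 1 of 3 MLS arrays, 1.20 higher (adjusted p = 0.000411). From PREANTRAL to ANTRAL 1 rose and 2 fell, beside 12.5% and 13.9%, with a difference of -1.37 for the retinol transporter Stra6 (adjusted p = 0.0193). The other gene that fell was Ezh2, a chromatin gene that is also on the list, at -0.55 (adjusted p = 0.0307 with limma). The gene called higher was the receptor Rarb (adjusted p = 0.0279), detected on 0 of 3 PREANTRAL and 1 of 3 ANTRAL arrays, so no size is given. From TLS to ANTRAL 3 rose and 3 fell, beside 20.8% and 19.3%, with Crabp2 2.48 higher (adjusted p = 1.24e-07) while Stra6 fell by 2.22 (adjusted p = 0.000237). The others that fell were Ezh2, at -0.93 (adjusted p = 0.000386 with limma), and Rara, detected on 1 of 3 TLS and 0 of 3 ANTRAL arrays. From TLS to MLS limma called 0 of 14, with 2 at an unadjusted p under 0.05. The list's medians lay between -0.28 and 0.11.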

How the data were processed

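RNA of 21 pooled samples was amplified, labelled and hybridised to Illumina bead arrays, per the labels. The deposited table gives, per the file headers, signal intensity without background correction or normalisation, and beside it a detection p-value. The authors' second table holds log2 values; limma is named in the submitters' processing notes, and its settings are not given in the sources used here. Column medians of that table lay between 7.71 and 7.74. Detection columns of the 2 antral arrays that share a name were matched to their signal columns by the order of values, with 0 steps against that order. Signals were processed in R 4.3.3 by the neqc function (limma 3.58.1, background from detection p-values, offset 16, quantile normalisation, log2). Probes with a detection p under 0.05 on at least 3 arrays, 15836 of them, were fitted with lmFit and eBayes, 1 mean per stage. P-values were two-sided and adjusted by Benjamini-Hochberg, threshold 0.05. Number of arrays limits the precision.

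Family members, gene lists and comparisons were chosen with earlier results of these data known. Gene symbols come from the array's annotation. For the lists the probe with the highest mean stood for its gene; named list genes are the 2 smallest adjusted p-values per comparison among those past the threshold, and Gdf9, Bmp15, Zp3 and the 5 genes most like the members are named as well. Sohlh1, Ezh2 and Rara were named after their values were seen. The fit was tested on simulated data.

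Repeat numbers are shared between stages. Between TLS and PMD3 the deviations of same-numbered arrays from their stage means correlated at 0.354, 0.701 and 0.274, so the numbers count as pairing for that comparison. The reported fits have no block, and the fit with it is an alternative. In the other comparisons the values ran from -0.173 to 0.179. For the comparisons with ANTRAL only repeat 1 could be paired. ANTRAL repeats a and b have no number, and the fit with the block leaves them out.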

Additional observations from a re-analysis of the deposited data

How the results depend on the processing

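Results were recomputed with median scaling, without background correction, with other filters on dim probes, with the authors' values, with variance from the 2 stages alone, with 1 probe per gene, without PREANTRAL repeat 2, without PMD3 and TLS repeats 2, with the replicate block and with each replicate left out. Of 80 counts of members, called or lying below TLS in ANTRAL relative to oocyte markers, 74 stayed within 1.5 times the reported one. The single call in MLS against TLS went to 0 with detection required on all 3 arrays of a stage and to 0 with variance from the 2 stages alone, and ranged from 0 to 1 with a replicate left out. In the former fit both Pramel37 probes were filtered out; otherwise the cause was not tested. The count of members that lay below TLS in ANTRAL relative to oocyte markers was 1 with Gdf9, Bmp15 and Zp3 alone and 1 in the authors' values, against 2. The counts ranged from 4 to 5 in TLS against PMD3, 5 to 5 in PREANTRAL against MLS, 4 to 5 in ANTRAL against PREANTRAL and 5 to 7 in ANTRAL against TLS. With the replicate block they were 5, 1 and 5 in the first 3 comparisons of the report, with no call changed. That fit kept 1 ANTRAL array, so no count is given for the 2 comparisons with ANTRAL. Of 625 values for single members 599 counted as unchanged and 0 reversed a call. A difference between stages counted as unchanged if it stayed on its side of the threshold. That included changes of sign between values that were not called, as for Pramel12 in TLS against PMD3 (-0.55 to 0.17). A difference relative to oocyte markers counted as unchanged if it moved by less than its SD within stages. Of the values that changed, 11 lost a call and 1 gained one, and the others were differences relative to oocyte markers. Over all probes the number of calls differed by more than 1.5 times from the 4576 of TLS against PMD3 (lowest 2526), the 423 of MLS against TLS (14 to 681), the 4176 of ANTRAL against PREANTRAL (lowest 2293) and the 6360 of ANTRAL against TLS (lowest 3898). Median scaling moved the share of higher among all calls from 52.5% to 68.7% in MLS against TLS, from 41.0% to 23.7% in PREANTRAL against MLS and from 47.5% to 67.0% in ANTRAL against PREANTRAL, and moved the median of all probes in ANTRAL against TLS to 0.10. Signal near background limits Pramel37, Oog4 outside PRIMARY to MLS, and Pramel25 in PMD3 and ANTRAL.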
